A study of Mus musculus with 8 samples.

Results

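The genes of the 5 subunits of the muscle acetylcholine receptor were followed from innervated to denervated tibialis anterior, a muscle of the lower hind leg. They are Chrna1 (alpha), Chrnb1 (beta), Chrnd (delta), Chrng (gamma) and Chrne (epsilon). They were chosen by symbol, as probe sets annotated with that single gene, and each was represented by 1 probe set, which gave 5 of the 14860 genes tested. The muscles came from male C57BL/6 mice aged 8 weeks. The left sciatic nerve had been cut, and the tibialis anterior of both legs was taken 7 days after transection. The 4 denervated samples were set against 4 innervated samples from the intact legs of operated animals, so the innervated group is a contralateral control and not a sham-operated one. Each sample was hybridised to 1 oligonucleotide array, and values are log2 intensities made with RMA, a method that corrects background, normalizes between arrays and merges the probes of a set.

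The receptor is the ligand-gated cation channel through which acetylcholine from the motor nerve depolarises the muscle fibre. Fetal muscle assembles alpha, beta, delta and gamma subunits, and in adult muscle epsilon replaces gamma at the synapse, which gives a channel of shorter open time and larger conductance. In innervated adult fibres the receptor is concentrated at the endplate, and electrical activity holds the subunit genes low in the nuclei along the rest of the fibre. Loss of the nerve is known to lift that repression, and receptors that hold the gamma subunit then appear outside the synapse.

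Short DNA elements in the promoters of these genes have been linked to both kinds of control. The E-box, written CANNTG, is bound by myogenic basic helix-loop-helix factors, and the N-box, CCGGAA, is bound by Ets factors at synaptic nuclei. The 250 bases before the transcription start in the RefSeq promoter table (GRCm38.p6) are shown for the 4 subunit genes that it lists. Chrnd has no entry there. These 4 windows are given because the genes differed in direction of change, although the lower value of Chrne missed the threshold given below. Each reads 5′ to 3′ on the strand of the gene, and capitals mark every E-box and N-box match. The windows are chr2:73580339-73580588 (minus strand) for Chrna1, chr11:69795938-69796187 (minus) for Chrnb1, chr1:87205561-87205810 (plus) for Chrng and chr11:70619195-70619444 (minus) for Chrne.
Chrna1: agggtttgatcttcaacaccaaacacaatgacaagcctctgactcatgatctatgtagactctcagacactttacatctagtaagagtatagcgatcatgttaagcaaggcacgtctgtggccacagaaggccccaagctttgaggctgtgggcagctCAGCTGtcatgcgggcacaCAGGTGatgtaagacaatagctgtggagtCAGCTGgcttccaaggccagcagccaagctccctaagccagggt
Chrnb1: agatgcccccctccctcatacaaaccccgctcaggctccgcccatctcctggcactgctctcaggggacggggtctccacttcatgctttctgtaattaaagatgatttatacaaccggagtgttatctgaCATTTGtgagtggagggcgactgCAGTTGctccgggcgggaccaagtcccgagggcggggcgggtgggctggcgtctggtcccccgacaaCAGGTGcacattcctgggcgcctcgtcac
Chrng: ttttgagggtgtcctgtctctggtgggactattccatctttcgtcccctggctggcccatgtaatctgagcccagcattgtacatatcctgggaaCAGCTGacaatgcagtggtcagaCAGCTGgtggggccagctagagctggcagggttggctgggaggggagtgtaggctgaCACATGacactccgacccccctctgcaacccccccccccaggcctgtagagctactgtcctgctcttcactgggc
Chrne: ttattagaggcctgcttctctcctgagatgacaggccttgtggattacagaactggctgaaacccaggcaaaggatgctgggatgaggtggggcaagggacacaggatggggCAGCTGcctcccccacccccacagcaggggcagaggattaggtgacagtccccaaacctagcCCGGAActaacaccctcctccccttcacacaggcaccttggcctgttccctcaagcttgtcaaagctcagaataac
Each of the windows of Chrna1, Chrnb1 and Chrng held 3 E-boxes, and the window of Chrne held 1. At least 3 E-boxes were found in 12.2% of the 32851 promoter windows of the same length in the table, and at least 1 in 66.2%. The E-box of the letters CAGCTG, one of the forms counted above, occurred 2 times in Chrna1 and in Chrng, 1 time in Chrne and not in Chrnb1, against at least 2 in 1.26% and at least 1 in 13% of all windows. In Chrna1 its matches began 92 and 44 bases before the start, and in Chrng 155 and 132 bases before it. The N-box, searched on both strands, was found once among the 4, in Chrne, where it began 76 bases before the start. Of all windows, 12% held an N-box. A match in letters does not show that a factor is bound there, and a link of these elements to the direction of change was not tested.

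Denervation raised the genes of 4 subunits. The alpha gene Chrna1 rose 7.44-fold, the delta gene Chrnd 2.53-fold, the beta gene Chrnb1 2.35-fold and the fetal gamma gene Chrng 2.06-fold. The adult epsilon gene Chrne was 1.47-fold lower in the denervated muscle and missed the threshold, an adjusted p under 0.05 in limma with the replicate number as a block. Of all genes tested, 3.56% were called higher and 4.89% lower, against 4 and 0 of the 5 subunit genes. At an unadjusted p under 0.05, 4 were higher and 1 was lower. The share of all genes past the unadjusted threshold was not counted, so unadjusted counts here and below have no background beside them. For each of the 5 genes the 4 denervated arrays did not overlap the 4 innervated ones, upward for 4 and downward for Chrne, whereas such separation was seen upward in 5.32% and downward in 7.4% of all genes. Over all genes tested the median change was -0.01.

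**Figure D1:**
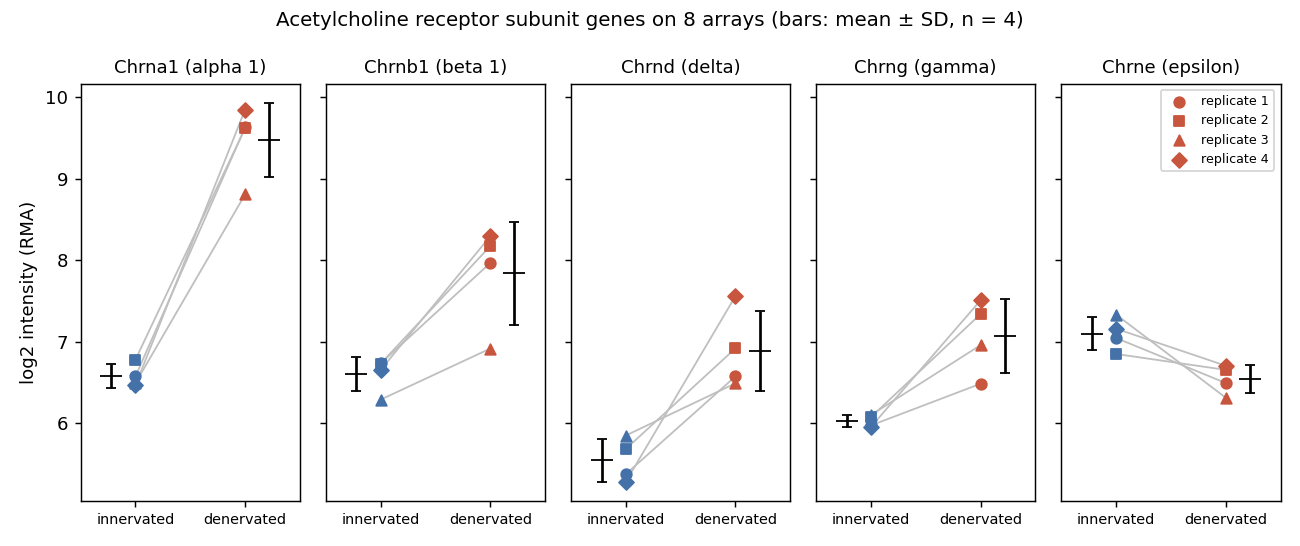
Log2 intensity (vertical axis) of each subunit gene on the 8 arrays, innervated in blue and denervated in red, with grey lines joining arrays of the same replicate number and bars giving the mean ± SD (n = 4). All 4 denervated arrays lie above the innervated ones for Chrna1, Chrnb1, Chrnd and Chrng and below them for Chrne; replicate 3 is the lowest denervated array for Chrna1 (8.81), Chrnb1 (6.92), Chrnd (6.49) and Chrne (6.31).

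Chrna1 encodes the alpha subunit, which carries the main part of the acetylcholine binding site. Its log2 intensity was 6.58, 6.78, 6.49 and 6.47 on innervated arrays 1 to 4 and 9.63, 9.62, 8.81 and 9.84 on denervated arrays 1 to 4. The lowest denervated array stood 2.03 above the highest innervated one. The change was 2.89 (SE 0.17, 95% interval 2.50 to 3.29, limma adjusted p = 0.000232), which is a fold between 5.64 and 9.80 and the rank 5 among the rises of all genes.

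Chrnb1 encodes the beta subunit, a structural subunit through which the receptor is tethered to the anchoring protein rapsyn. It measured 6.73, 6.73, 6.29 and 6.65 on the innervated arrays and 7.97, 8.17, 6.92 and 8.29 on the denervated arrays. Replicate 3 was the lowest array in both groups, and its denervated value lay only 0.18 above the highest innervated value. The change was 1.24 (SE 0.17, 95% interval 0.84 to 1.63, limma adjusted p = 0.00562), the rank 84 among all rises. Without replicate 1 the change was as large, 1.24, but missed the threshold (adjusted p = 0.0515).

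Chrnd encodes the delta subunit, which forms a binding site together with an alpha subunit. Its innervated values of 5.38, 5.68, 5.85 and 5.28 were each below the median of their own array over all probe sets (medians 5.87 to 5.93). The table gives no detection call that would tell a dim probe set from background. The denervated values were 6.57, 6.92, 6.49 and 7.56, with replicate 4 clearly the highest. The change was 1.34 (SE 0.24, 95% interval 0.79 to 1.89, limma adjusted p = 0.0147), the rank 60 among all rises, and it missed the threshold without replicate 1 or 2 (adjusted p = 0.0818 and 0.0554).

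Chrng, the fetal gamma subunit, gave 5.97, 6.08, 6.10 and 5.96 on the innervated arrays, each just above the median of its array and with an SD of 0.07. It gave 6.49, 7.34, 6.96 and 7.51 on the denervated arrays, where replicate 1 was the lowest. The change was 1.05 (SE 0.17, 95% interval 0.64 to 1.45, limma adjusted p = 0.0118), the rank 137 among all rises. Without replicate 2 it was 0.97 and missed the threshold (adjusted p = 0.0559).

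Chrne, the adult epsilon subunit, gave 7.05, 6.85, 7.33 and 7.16 on the innervated arrays and 6.49, 6.66, 6.31 and 6.71 on the denervated arrays. The groups were separated by 0.14, the smallest gap among the 5 genes. The change was -0.55 (SE 0.15, 95% interval -0.89 to -0.22), with an unadjusted p of 0.00571 and a limma adjusted p = 0.0604. Without the block the same change passed (adjusted p = 0.0495), and so it did under 6 other alternatives, with adjusted p between 0.0206 and 0.0496. In every fit the change was negative. In whole muscle, a change in the number of nuclei or cells that express a gene and a change in the RNA made by each cannot be told apart, which holds for each of the 5 genes.

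**Figure D2:**
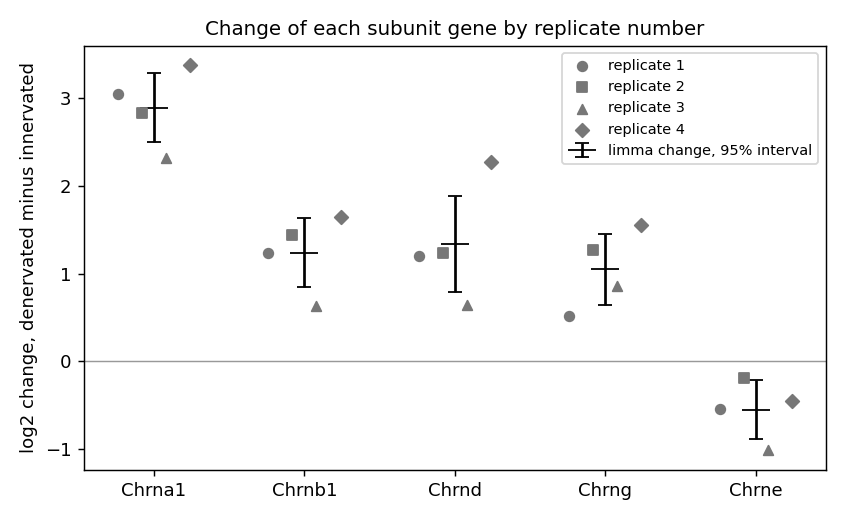
Change in log2 intensity, denervated minus innervated (vertical axis), of the 5 subunit genes: grey symbols are the differences between arrays of the same replicate number, and black bars the limma change with its 95% interval. Chrna1 lies between 2.31 and 3.38 in every replicate, Chrnb1, Chrnd and Chrng share the range from 0.51 to 2.28, and Chrne lies between -1.02 and -0.20.

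Taken by replicate number, the change of Chrna1 was 3.05, 2.84, 2.31 and 3.38, that of Chrnb1 1.23, 1.44, 0.63 and 1.64, and that of Chrnd 1.20, 1.23, 0.64 and 2.28. The change of Chrng was 0.51, 1.26, 0.86 and 1.55, and that of Chrne -0.55, -0.20, -1.02 and -0.45. Replicate 4 showed the largest rise of each of the 4 rising genes. Replicate 3 showed the smallest rise of Chrna1, Chrnb1 and Chrnd and the largest difference of Chrne. The arrays of replicate 3 stood apart from the rest, with an SD over probe sets of 1.36 and 1.25 against 1.45 to 1.56 on the other 6 arrays. Without replicate 3 the changes were 3.09 for Chrna1, 1.44 for Chrnb1, 1.57 for Chrnd, 1.11 for Chrng and -0.40 for Chrne, and the same 4 genes passed.

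The size of the change differed among the subunit genes. In each replicate the rise of Chrna1 exceeded those of Chrnb1, Chrnd and Chrng, by 1.10 at the least and 2.54 at the most on the log2 scale. Among the other rising genes no order held in all replicates. Chrnb1 differed from Chrnd by -0.10 ± 0.37 (SD, n = 4 replicate numbers), Chrnb1 from Chrng by 0.19 ± 0.40 and Chrnd from Chrng by 0.29 ± 0.48, each less than its spread. These differences between changes were not tested, and probe sets can differ in how far they compress a change.

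For each of the 4 rising genes the SD was larger among the denervated than the innervated arrays, 0.45 to 0.63 against 0.07 to 0.26. For Chrna1 the denervated SD was 0.13 without replicate 3, no larger than the innervated 0.16. For the other rising genes the denervated SD stayed above the innervated one without replicate 3. It was 0.17 against 0.05 for Chrnb1, 0.50 against 0.21 for Chrnd and 0.55 against 0.06 for Chrng. Chrne had about the same SD in both groups, 0.20 innervated and 0.18 denervated. The cause of the spread was not tested.

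The fetal subunit changed relative to the adult one. On each array the log2 value of Chrng was set against that of Chrne, a difference that has no meaning as a ratio of transcripts, since the probe sets differ, but whose shift between groups does not depend on the array's overall brightness. It was -1.07, -0.77, -1.23 and -1.20 on the innervated arrays and -0.01, 0.68, 0.64 and 0.80 on the denervated arrays. The groups did not overlap, and denervated replicate 1 was the closest to the innervated arrays. The mean moved from -1.07 ± 0.21 to 0.53 ± 0.37 (SD, n = 4), a shift of 1.60 toward Chrng, or 3.03-fold. An exact two-sided permutation test over all 70 assignments of the arrays, without regard to replicate number, gave p = 0.0286, the smallest it can give with 4 against 4. It had to give that value, since Chrng was higher and Chrne lower on the denervated arrays, each without overlap. The test therefore adds nothing to those separations. By replicate number the shift was 1.06, 1.46, 1.88 and 2.01. A sign-flip test over those 4 values cannot go below 0.125, and gave that value (exact, two-sided).

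**Figure D3:**
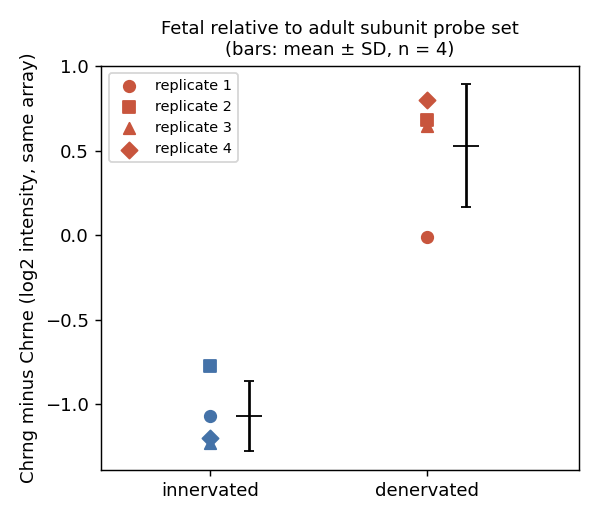
Difference between the Chrng and Chrne log2 intensities on the same array (vertical axis) in innervated (blue) and denervated (red) muscle, with bars giving the mean ± SD (n = 4). The innervated arrays lie between -1.23 and -0.77 and the denervated arrays between -0.01 and 0.80.

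None of the other nicotinic subunit genes, which form receptors mainly in neurons, was called. The 9 measured, Chrna2 to Chrna7 and Chrnb2 to Chrnb4, changed by -0.21 to 0.24. In limma 0 were called, with or without the block, and 0 had an unadjusted p under 0.05. Over all genes tested, 3.56% were called higher and 4.89% lower in limma with the block. That is the background for the counts of that fit in this and each later list, and shares under the alternatives are not given. Beside such low shares, 0 of 9 says little about these genes. Their innervated means ran from 4.23 for Chrna5 to 5.98 for Chrnb4. All but that of Chrnb4 lay below the innervated array medians (5.87 to 5.93), so most may be near background. Of 5 muscarinic receptor genes, which encode the G-protein-coupled acetylcholine receptors, 0 were called, and 1 was higher at an unadjusted p under 0.05. Among 3 measured genes of acetylcholine breakdown, the gene of the enzyme itself, Ache, fell by 0.92 (SE 0.12, limma adjusted p = 0.00527). Its adjusted p was 0.0509 without replicate 1. Bche changed by -0.55 and Prima1 by 0.05, neither past the threshold. With array weights and without replicate 2, 2 of the 3 genes were called lower.

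Of 13 measured genes that cluster and anchor the receptor, 1 rose and 0 fell, with 1 higher and 1 lower at an unadjusted p under 0.05. The gene that rose was Musk, the receptor tyrosine kinase that receives the agrin signal, by 1.08 (SE 0.21, limma adjusted p = 0.0213). It missed the threshold without replicates 1, 2 and 4 (0.121, 0.0916 and 0.0868). The list's median change was -0.06, against 1.24 for the 5 subunit genes. Of 6 genes of the neuregulin and N-box pathway 0 were called, with 1 higher at an unadjusted p under 0.05, and the Ets factor genes Gabpa and Etv5 changed by 0.15 and -0.29.

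Among 18 measured E-box and activity-dependent regulators, 6 rose and 2 fell, with a median change of 0.05. Of all genes tested, 3.56% were called higher and 4.89% lower. At an unadjusted p under 0.05, 8 of the 18 were higher and 3 lower. The rises were those of Runx1 (2.14), Myf6 (1.88), Id2 (1.51), Sik1 (1.31), Hdac4 (1.23) and Myod1 (0.49), and the falls those of Hdac9 (-0.96) and Eya1 (-0.91). Myod1 and Myf6 encode E-box-binding muscle factors, Id2 an inhibitor of such factors, and Hdac4 a deacetylase that responds to loss of activity. Of the other muscle E-box factor genes, Myog changed by 0.36 and Myf5 by -0.11, and neither was called (limma adjusted p = 0.156 and 0.627). The E-box factor genes Tcf3, Tcf4 and Tcf12 changed by 0.17, -0.10 and 0.38 and were not called either. Myod1 missed the threshold after median centring and without replicates 1, 2 and 4 (adjusted p of 0.054, 0.178, 0.149 and 0.0966), and Hdac9 without replicates 1 and 4 (0.121 and 0.115).

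Of 8 measured genes of receptor folding and trafficking, the chaperone gene Canx rose by 0.51 and Sar1b and Sorbs2 changed by -0.70 and -1.64. Canx and Sar1b missed the threshold after median centring (0.0517 and 0.0728) and without replicates 1, 2 and 4 (0.0783 to 0.192 and 0.0699 to 0.142). Of 5 channel and adhesion genes of the fibre membrane, the small-conductance potassium channel gene Kcnn3 rose by 1.92 and Ncam1 by 1.39, while the chloride channel gene Clcn1 changed by -1.39 and the sodium channel subunit gene Scn4b by -1.18.

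**Figure D4:**
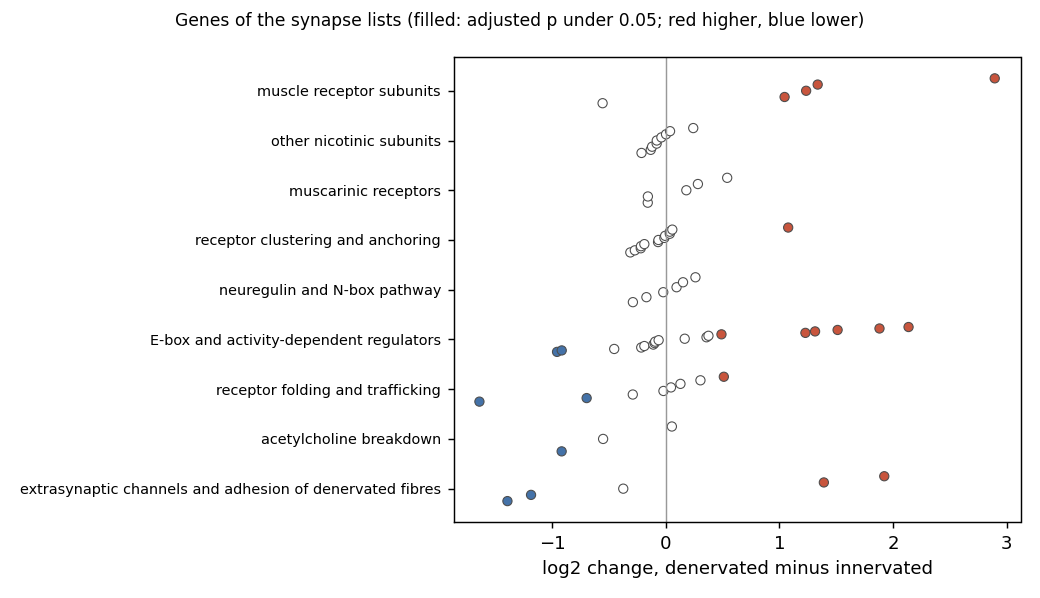
Change in log2 intensity (horizontal axis) of every measured gene of the receptor subunit list and 8 related lists, 1 point per gene, filled where the limma adjusted p is under 0.05 (red higher, blue lower in denervated muscle). The subunit genes reach from -0.55 to 2.89, while the other nicotinic subunit genes, most of them dim on these arrays, lie between -0.21 and 0.24.

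The genes whose values most resembled those of each subunit gene were found as the root mean square difference over the 8 arrays. Each gene was first centred on its own mean. The centring keeps the change between the groups, so genes with a change of similar size tend to come out near by construction. For Chrna1 they were Cdkn1a (0.21), Hpgd (0.24) and Rb1 (0.24), for Chrnb1 Musk (0.14), Elk4 (0.14) and Maged1 (0.16), for Chrnd Tiam2 (0.20), Tekt1 (0.22) and Ncam1 (0.24), and for Chrng Tiam2 (0.13), Erbin (0.14) and Zfp52 (0.16). For Chrne they were Mapk9 (0.08), Spryd4 (0.09) and Zfp672 (0.09), which changed by -0.52, -0.66 and -0.58. Mapk9 and Zfp672 were not called in limma with the block. Spryd4 was called, but not after median centring or without replicate 1, 3 or 4. No subunit gene was among the 3 nearest of another.

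Markers of other cells moved in the same samples. Intensities were summed before the log2 was taken, so bright markers weigh most in each sum. The summed intensity of 9 macrophage and leukocyte markers lay between 9.20 and 9.47 (log2) on the innervated arrays and between 10.18 and 11.12 on the denervated arrays. Of the 9, 3 were called higher, namely Tyrobp, Cd68 and Fcer1g. Ptprc, not called, changed by 0.58, 0.41, 3.25 and 0.64 in replicates 1 to 4, with the jump in replicate 3. At an unadjusted p under 0.05, 8 of the 9 were higher and 0 lower, and with array weights 6 were called higher. For neither count is the share over all genes given. Fcer1g missed the threshold without replicates 1 and 4 (0.130 and 0.0613). The sum of 7 myofibre markers was 14.15 to 14.43 against 13.63 to 14.08. Of the 7, Pygm and Ckm fell by 1.35 and 1.00, and the others were not called, with changes from -0.40 for Acta1 to 0.30 for Des. In place of 0, 1 myofibre marker was called higher after quantile or cyclic loess normalization, with array weights and without replicate 3. The sum of 7 satellite cell markers was 8.53 to 8.67 against 8.48 to 8.70, with 0 called and 0 at an unadjusted p under 0.05. Sums of 6 Schwann cell markers were 8.82 to 10.55 and 8.78 to 9.23, of 6 fibroblast markers 11.57 to 12.10 and 11.37 to 11.95, and of 6 endothelial markers 9.62 to 10.18 and 9.26 to 9.77. Of these, 1 Schwann cell marker, Pmp22, and 2 endothelial markers were called lower and 1 fibroblast marker higher. Without replicate 1, 0 were called in each of the 3 lists. Pmp22 varied widely among the innervated arrays, at 8.89 ± 1.11 (mean ± SD, n = 4). At an unadjusted p under 0.05, 0 endothelial markers were higher and 4 lower, with changes from -0.77 to -0.06. In the Schwann cell and the fibroblast list, 1 was higher and 1 lower at that level. With array weights, without replicate 3 and without the dimmest 50% of genes, 1 fibroblast marker was called lower in place of 0. The part of these cells in the subunit changes was not tested.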

How the data were processed

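The deposited table holds log2 intensities for 16755 probe sets on 8 arrays, which the authors obtained through GCOS and RMA, per the submitters' processing notes, which name the build mm9; versions and filters are not given in the sources used. Per the labels' protocols, 50 ng of total RNA was amplified, fragmented to about 85 bases and labelled with biotin. Values ran from 1.67 to 13.1, and 4 arrays per group limit the precision. All 8 columns were used.

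The 14996 probe sets with a single gene symbol gave 14860 genes, taking the probe set of highest mean. Genes were tested with limma 3.58.1 in R 4.3.3 (group plus replicate number, two-sided, Benjamini-Hochberg over all genes, threshold 0.05; 3 residual and 4.57 prior degrees of freedom). The block follows the submitters' normalization to the contralateral muscle. The labels do not say that a number marks 1 animal or that arrays of a group are separate animals, and the p-values therefore describe the spread among these arrays, which may be technical. Tested on simulated data of 14860 genes, 60 of 60 changes of 2, 59 of 60 of 1 and 26 of 80 of 0.5 were recovered (log2). Of the 157 calls, 12 were unchanged genes. The simulated noise was independent between genes and arrays, with no replicate effect and no array that stood apart as those of replicate 3 do. The recovery therefore applies to that simpler setting. Named genes are the 5 subunit genes, the called members of the related lists, and the 3 nearest genes in pattern. Other genes were named to complete a list or give an example, after their values were seen. Members and lists were chosen with earlier results of these data known. Promoter sequences are RefSeq's, and 4 of 5 members matched.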

Additional observations from a re-analysis of the deposited data

How the results depend on the processing

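The direction of each of the 5 subunit genes and of the shift from Chrne to Chrng was the same under every alternative run. Chrna1 passed in all of them, at changes of 2.73 to 3.09 where 1 replicate number was left out. In those fits Chrnb1 changed by 1.10 to 1.44, Chrnd by 1.02 to 1.57, Chrng by 0.88 to 1.22 and Chrne by -0.67 to -0.40; the number of subunit genes called higher was 2 without replicate 1 and 2 without replicate 2, against 4 otherwise, so it ran from 2 to 4. Fits on 3 pairs have fewer residual degrees of freedom. Chrne passed, and 1 subunit gene was called lower in place of 0, with no replicate block, with the replicate block as a random effect, after cyclic loess normalization, after removal of the dimmest 25% or 50% of genes and with trended moderation (change of -0.55 in each), and with array weights (-0.47). The block changed no other call among the subunit genes. After subtraction of group means, same-numbered arrays correlated at 0.23, -0.03, 0.45 and 0.35, so number 2 showed no sign of pairing. The Chrng to Chrne shift of 1.60 had p = 0.125 in the sign-flip permutation test with the replicate block, and was 1.47 to 1.78 without 1 replicate number, where the exact permutation test gave 0.1, the smallest possible. Among 38 named genes outside the subunits, none of 606 values reversed, 43 lost their call and 9 gained one. Array signal over background could not be judged, since the table has no detection values.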

Other observations

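The subunit genes lie on 3 chromosomes, with Chrnd and Chrng next to each other among the measured genes of chromosome 1, Chrna1 on chromosome 2 and Chrnb1 and Chrne apart on chromosome 11, in the gene order of GRCm38.p6. There were 16 other measured genes within 2 measured genes of a subunit gene. In limma 0 of them were called higher and 1 lower, against 3.56% and 4.89% of all genes tested. The gene called lower was Slc25a11, a mitochondrial carrier gene beside Chrne, which changed by -0.94 (limma adjusted p = 0.0133). At an unadjusted p under 0.05, 0 were higher and 1 was lower. The 16 changes lay between -0.94 and 0.21, below each of the changes of the 4 rising subunit genes. Slc25a11 was named after its value was seen.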
